A study of Homo sapiens with 6 samples.

Results

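The 10 urothelial identity markers described here include GATA3, PPARG, FOXA1, KRT20 and UPK2, which mark luminal or differentiated urothelium. Of the others, KRT5, TP63 and CD44 mark its basal layer, and KRT7 and KRT18 are simple-epithelial keratins. The 10 markers were found by symbol among the 63677 gene identifiers of the count table, and all were matched. The list is one of names, with no threshold on a measured value. The libraries came from T24, a single human cell line from a high-grade bladder carcinoma. There were 3 control libraries (replicates 1, 3 and 5), from cells given a negative control siRNA, and 3 siRBM3 libraries (replicates 3, 4 and 5), from cells given a mix of siRNAs s11858 and s11860 against RBM3, which encodes an RNA-binding protein. In both groups the siRNA was used at 25 nM with a lipid reagent in serum-free medium for 4.5 h, and cells were collected after a night in full medium. All values therefore describe 1 line soon after transfection, and no untransfected cells were sequenced among these libraries. Nothing in the labels says that the replicates were separate cultures, so p-values measure only the spread between these samples, which may be technical.

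The urothelium lines the bladder in layers. Basal cells rest on the basement membrane, carry keratin 5, p63 and CD44, and can give rise to the layers above, while umbrella cells at the lumen carry keratin 20 and plaques of uroplakins. PPARG with its partner RXRA, GATA3 and FOXA1 are the transcription factors best known for driving luminal differentiation, and bladder cancers are commonly sorted into luminal and basal classes by these same markers. Keratins form filaments from pairs of a type II chain, such as KRT5, KRT7 or KRT8, and a type I chain, such as KRT18, KRT19 or KRT20.

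Library totals ranged from 23603992 to 45098612 counts, and siRBM3 replicate 3 was the deepest. A gene with 3 counts stood at 0.0665 to 0.127 CPM depending on the library, where CPM is the count relative to the library total, scaled by the TMM factors of edgeR. RBM3, the silenced gene, stood at 298 ± 71.3 CPM in controls against 67.5 ± 19.6 CPM on silencing (SD, n = 3), with no overlap and a log2 fold change of -2.14 (FDR 0.0822, edgeR quasi-likelihood test, Benjamini-Hochberg). Of the epithelial genes, KRT8, KRT18 and KRT19 were abundant, and EPCAM had 4.89 to 6.87 CPM. CDH1, which encodes E-cadherin, had 57 counts over all 6 libraries together, 21 in control replicate 1 and 26 in siRBM3 replicate 3. The leukocyte marker PTPRC had 22 counts in all.

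The level of the markers in T24 cells was examined first, across all 6 libraries. The simple-epithelial keratins KRT7 and KRT18 and the adhesion receptor CD44 were among the most abundant mRNAs, the luminal transcription factors PPARG, FOXA1 and GATA3 lay in the middle of the range, UPK2 was low, and KRT20, KRT5 and TP63 were close to the counting limit. To compare genes of different length, levels were expressed as TPM, the length-corrected share of each gene in its library, from the counts and exon lengths. The mean TPM over the 6 libraries was 2750 for KRT7, 937 for KRT18, 451 for CD44, 45.6 for PPARG, 40.8 for FOXA1, 14.0 for GATA3 and 5.57 for UPK2. It was 0.136 for TP63, 0.0786 for KRT20 and 0.0272 for KRT5.

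In this order most neighbours were clearly apart, since the lowest library of the upper gene was above the highest library of the lower gene. KRT7 ranged from 1920 to 3540 TPM and KRT18 from 661 to 1340 TPM, above CD44 at 378 to 490 TPM. PPARG and FOXA1 could not be ordered, with 33.9 to 49.5 and 34.2 to 49.2 TPM, although PPARG takes 86.8 TPM and FOXA1 36.9 TPM when the longest transcript is used as the length. GATA3 at 12 to 17.6 TPM was separate from FOXA1 above and from UPK2 below, which had 3.99 to 7.24 TPM. The ranges of TP63 (0.02 to 0.383 TPM), KRT20 (0 to 0.394 TPM) and KRT5 (0 to 0.0725 TPM) overlapped, and their order is not resolved at this depth.

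Read against the 15099 genes that passed the filter on low counts, KRT7 stood at percentile 99.8, KRT18 at 99.2 and CD44 at 98.1 of mean TPM. Among all identifiers with a length, KRT7 ranked 32nd, KRT18 113th and CD44 278th. PPARG was at percentile 75.1 and FOXA1 at 72.6, GATA3 at 47.5 and UPK2 at 30.1. TP63 at percentile 0.4 and KRT20 at 0.1 lay below nearly every gene tested, and neither they nor KRT5 passed the filter, so 7 of the 10 markers were tested between the groups.

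**Figure D1:**
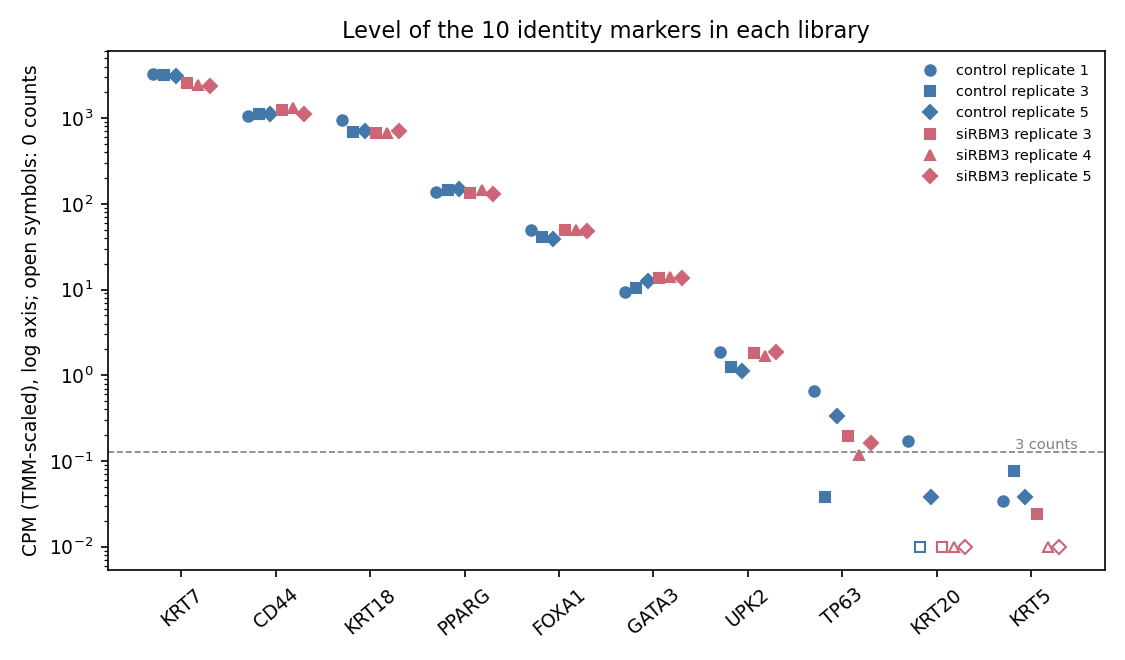
Level of each of the 10 markers in every library, as TMM-scaled CPM on a log axis, with control libraries in blue and siRBM3 libraries in red, one symbol per replicate number. Open symbols at the bottom stand for 0 counts. The dashed line is the level of 3 counts in the shallowest library, 0.127 CPM without TMM scaling. KRT7, CD44 and KRT18 lie at or above 664 CPM in every library, while all KRT5 symbols lie below the line.

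**Figure D2:**
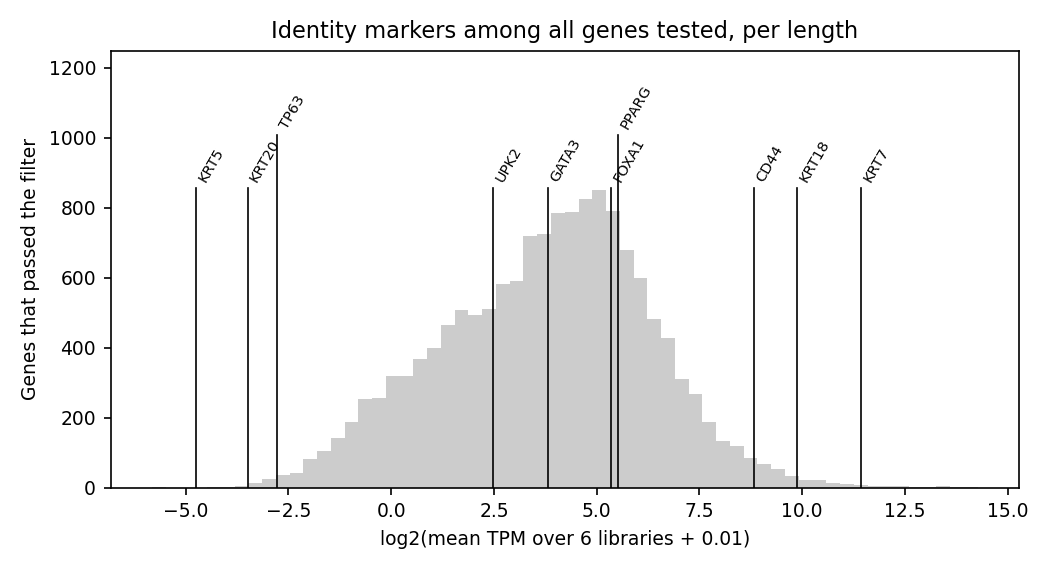
Mean TPM over the 6 libraries, on a log2 scale after adding 0.01, for the 15099 genes that passed the filter (grey histogram, number of genes per bin), with a vertical line at the mean of each marker. KRT7, KRT18 and CD44 fall in the upper tail, and TP63, KRT20 and KRT5 at or beyond the lower end.

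The low markers are best read in counts. KRT20, the keratin of umbrella cells (ENSG00000171431, chromosome 17 of GRCh37, 39032141 to 39041494, minus strand), had 5, 0 and 1 counts in control replicates 1, 3 and 5 and 0 in each siRBM3 library. Its pooled level was 0.0344 CPM, with an exact Poisson 95% interval of 0.0126 to 0.0748 that covers counting error only, as do all such intervals here. KRT5 (ENSG00000186081, chromosome 12, 52908359 to 52914314, minus strand), the basal keratin, had 1, 2 and 1 counts in control and 1, 0 and 0 in siRBM3 libraries, or 0.0286 CPM pooled (0.0093 to 0.0668). No library exceeded 3 counts for KRT5, and for KRT20 a single one did, so no fold change is given for either.

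TP63 encodes p63, the transcription factor that maintains basal and stratified epithelia (ENSG00000073282, chromosome 3, 189349178 to 189615065, plus strand). It had 19, 1 and 9 counts in control replicates 1, 3 and 5 and 8, 3 and 4 counts in siRBM3 replicates 3, 4 and 5. In CPM these were 0.654, 0.0382 and 0.339 against 0.195, 0.118 and 0.161, so the highest and the lowest library were both controls and the groups overlapped. The pooled level was 0.252 CPM (exact Poisson interval 0.183 to 0.338), and control replicate 1 held 19 of its 44 counts.

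The other basal genes ranged from absent to abundant. Of 21 further basal and squamous genes, all in the table, 10 passed the filter and 5 were listed at 0 in every library, namely KRT17, KRT6A, KRT6B, KRT6C and the desmosomal cadherin DSG3. A count of 0 in all 6 libraries allows a level of up to 0.0172 CPM by the limit of 3 counts (of 174551680). By the exact Poisson interval used above it allows up to 0.0211 CPM. Of the 75-base windows of KRT17, KRT6A, KRT6B and KRT6C, 15.6, 26.2, 34.6 and 42.5% occur also in another gene. For DSG3 the share was 1.9%. The treatment of reads that match several genes is not given, so the values are uncertain for those windows. KRT14, the type I partner of KRT5, had 9 counts in all. By contrast S100A2, a calcium-binding protein of basal cells, had 1330 TPM, and ITGA6, a laminin receptor chain of basal cells, had 313 TPM.

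UPK2 encodes a uroplakin of the umbrella cell plaques (ENSG00000110375, chromosome 11, 118795873 to 118829269, plus strand). BCL9L, on the other strand, overlaps 4.8% of the exon bases of UPK2. Other uroplakin genes were lower still, with 12 counts in all for UPK1B, 8 of them in control replicate 1, and 7 for UPK3A, 4 of them in siRBM3 replicate 3. Among luminal genes not in the set of 10, KRT8 had 586 TPM, KRT19 440 TPM and XBP1, a transcription factor of secretory cells, 269 TPM.

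Promoter sequence was read for the markers present in a RefSeq table of GRCh38.p14, which held 7 of the 10 (not KRT7, KRT18 or UPK2). CG dinucleotides, the sites of DNA methylation, were counted in the 250 bases before each annotated start, where the median of 35116 promoters was 11. FOXA1, expressed at 40.8 TPM, had 26, and 19.6% of promoters have at least as many. KRT20, at 0.0786 TPM, had 2, and 22.9% of promoters have at most as many. The pair is shown because, of the markers with a single annotated start, they have the most and the fewest CG. FOXA1 was read at chr14:37595250-37595499 on the minus strand and KRT20 at chr17:40885243-40885492 on the minus strand, both printed 5′ to 3′ with CG in capitals.
FOXA1: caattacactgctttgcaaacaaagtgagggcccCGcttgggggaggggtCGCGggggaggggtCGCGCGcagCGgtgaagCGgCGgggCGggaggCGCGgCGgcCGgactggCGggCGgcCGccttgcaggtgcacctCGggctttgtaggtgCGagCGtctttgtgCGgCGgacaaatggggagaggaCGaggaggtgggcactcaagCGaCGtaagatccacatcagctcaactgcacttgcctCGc
KRT20: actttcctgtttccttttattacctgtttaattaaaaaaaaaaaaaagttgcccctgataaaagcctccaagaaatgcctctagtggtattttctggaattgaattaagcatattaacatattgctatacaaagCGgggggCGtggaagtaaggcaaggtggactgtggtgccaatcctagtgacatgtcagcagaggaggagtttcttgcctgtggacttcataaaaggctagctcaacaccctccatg
The count did not order the markers by level, since CD44 at 451 TPM had 15 CG, and KRT5 and TP63, at 0.0272 and 0.136 TPM, had 6 each. GATA3 and PPARG have 6 annotated starts each, with 4 to 30 CG for GATA3 and 0 to 10 for PPARG. The letters TATAAA, searched on both strands, were found before the second GATA3 start and before the second and the third PPARG start, and in 10.7% of all promoters. Methylation and the use of each start were not measured in these libraries.

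The effect of RBM3 silencing on the markers was then examined. None of the 7 tested markers was called in the edgeR quasi-likelihood test at a fold change of 1.5 and a Benjamini-Hochberg FDR of 0.01, the thresholds of the study, where 0% of all 15099 genes were called. KRT7 was lower in every siRBM3 library than in every control library, and GATA3 was higher in every one. The groups overlapped for PPARG, FOXA1, UPK2, CD44 and KRT18. At an unadjusted p under 0.05 there were 2 of 7 markers, KRT7 lower and GATA3 higher, where 13.1% of all genes passed in either direction and 6.58% passed as lower. Groups that do not overlap were found for these same 2 of 7 markers and for 19.9% of all genes. DESeq2 called 0 of the 7 at the same thresholds, against 1.22% of the 13068 genes with an adjusted p in that tool. The median log2 fold change of the 7 was 0.15, with 4 higher and 3 lower, and that of all genes was -0.01.

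KRT7 is a type II keratin of simple and transitional epithelia (ENSG00000135480, chromosome 12, 52626304 to 52645970, plus strand). Control replicates 1, 3 and 5 held 3240, 3160 and 3100 CPM of it, against 2540, 2420 and 2350 CPM for siRBM3 replicates 3, 4 and 5. The lowest control library was thus above the highest siRBM3 library, and the spread within each group was small, at 3160 ± 70.2 and 2440 ± 94.9 CPM (SD, n = 3). The log2 fold change was -0.38 (SE 0.09, 95% interval -0.59 to -0.16), at an unadjusted p under 0.05 and an FDR of 0.170 (edgeR quasi-likelihood, Benjamini-Hochberg). DESeq2 gave a Benjamini-Hochberg adjusted p of 0.00967, but the fold stayed below 1.5, so the gene was not called. An exact two-sided permutation test gave p = 0.1, the smallest possible with 3 libraries against 3. With the replicate number as a block in edgeR the log2 fold change was -0.36 (FDR 0.261) and the unadjusted p no longer under 0.05. KRT7-AS and KRT87P overlap 7.9% of the exon bases of KRT7 on the other strand, and the sources used here do not state if counting was by strand. KRT7-AS, the antisense gene, had 10.3 ± 2.45 and 7.84 ± 2.28 CPM (SD, n = 3) in the same groups, far below KRT7 itself.

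KRT18 encodes the type I keratin that pairs with keratin 8 (ENSG00000111057, chromosome 12, 53342655 to 53346690, plus strand). Control replicates 1, 3 and 5 held 939, 686 and 706 CPM, against 670, 664 and 716 CPM for siRBM3 replicates 3, 4 and 5. Control replicate 1 stood above the rest, and the other 5 libraries lay within 664 to 716 CPM. The log2 fold change was -0.18 (95% interval -0.49 to 0.12, FDR 0.603, edgeR quasi-likelihood), and without control replicate 1 it was -0.03. Of the exon bases of KRT18, 20% overlap KRT8 on the other strand or AC107016.2, and 2.9% overlap a gene on the same strand. Of the 75-base windows of its transcript, the read length used here, 18.8% occur also in another gene on either strand, mostly KRT8.

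KRT8, the type II partner of KRT18, had 1340, 992 and 1110 CPM in control and 780, 920 and 965 CPM in siRBM3 libraries. The groups did not overlap, and the log2 fold change was -0.37 (95% interval -0.69 to -0.05, FDR 0.309, edgeR quasi-likelihood). KRT19 had 273 ± 60.8 and 247 ± 39.7 CPM (SD, n = 3), with overlapping groups and a log2 fold change of -0.14 (95% interval -0.55 to 0.26). KRT8 and KRT19, like KRT18, were highest in control replicate 1.

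These 4 keratins made up nearly the whole keratin pool. The table held 55 keratin genes, of which 19 were at 0 in every library, and KRT7, KRT8, KRT18 and KRT19 together gave 95.6 to 97.2% of keratin TPM. The share of KRT7 was 57.7 ± 3.28% in control and 55.3 ± 2.43% in siRBM3 libraries (SD, n = 3), and that of KRT18 was 18.3 ± 1.84% and 20.2 ± 0.926% (SD, n = 3). The ratio of the type II chains KRT7 and KRT8 to the type I chains KRT18 and KRT19, in TPM, was 2.64 ± 0.37 in control and 2.26 ± 0.161 in siRBM3 libraries (SD, n = 3; exact permutation test, two-sided p = 0.2). KRT7 over KRT8 was 4.81 ± 0.666 and 4.78 ± 0.737 in TPM (SD, n = 3; exact permutation test, two-sided p = 1.0). The summed CPM of KRT7 and KRT18 was 3800 to 4180 in control and 3070 to 3210 in siRBM3 libraries, without overlap, and most of it was KRT7.

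**Figure D3:**
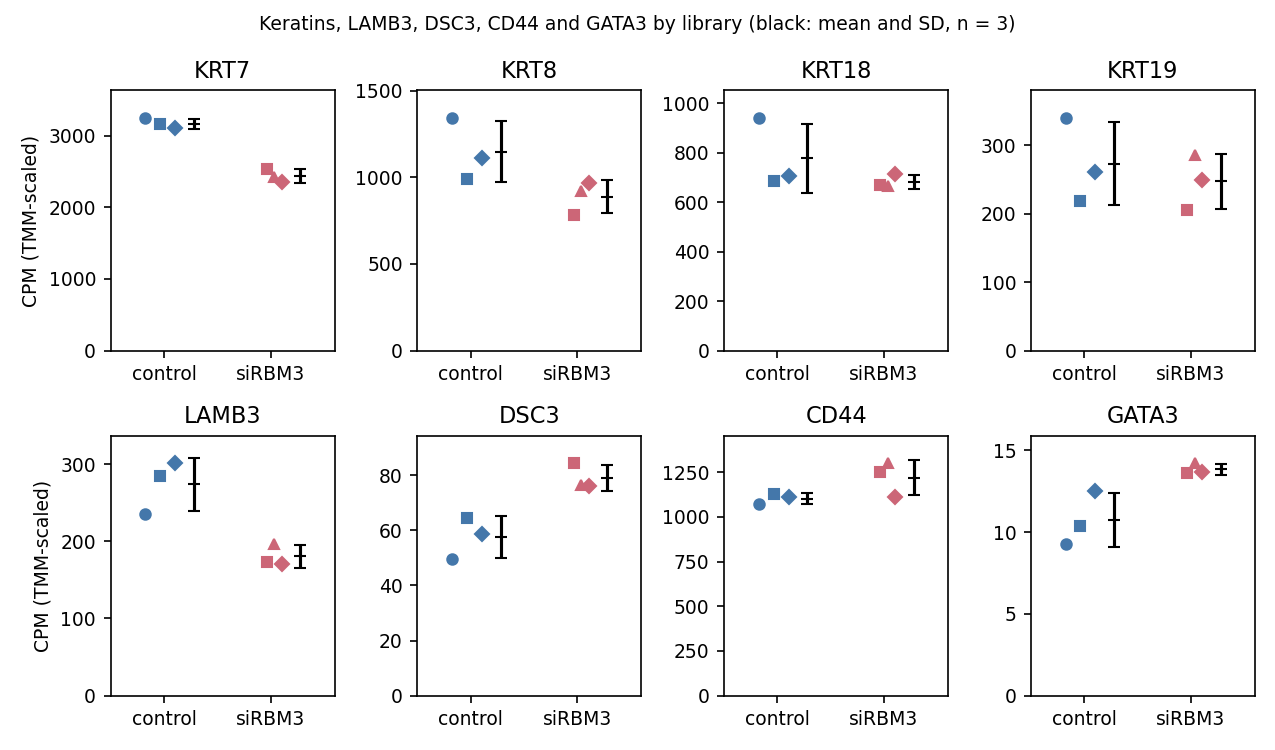
TMM-scaled CPM per library (axis from 0) for KRT7, KRT8, KRT18, KRT19, the laminin chain LAMB3, the desmosomal cadherin DSC3, CD44 and GATA3, with controls in blue and siRBM3 in red and, in black, the mean and SD of 3 libraries. KRT7 separates the groups with little spread (3160 ± 70.2 against 2440 ± 94.9 CPM), while KRT18 is drawn up in controls by replicate 1 alone (939 CPM).

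KRT18 has many processed pseudogenes, intronless copies of its mRNA, and 67 of them were in the table. Together they had 0.715, 0.764 and 0.975% of the KRT18 counts in control and 0.501, 0.535 and 0.439% in siRBM3 libraries. The one with the most counts, KRT18P54 (ENSG00000250834, chromosome 4, 136292332 to 136293079, minus strand), had 136, 88 and 144 counts in control and 60, 34 and 26 in siRBM3 libraries. In CPM it was 4.49 ± 1.04 and 1.28 ± 0.212 (SD, n = 3), with no overlap. Its log2 fold change was -1.79 (95% interval -2.38 to -1.20, FDR 0.0822, edgeR quasi-likelihood, Benjamini-Hochberg), and DESeq2 called it with an adjusted p of 1.27e-06. KRT18 itself had a log2 fold change of -0.18. No 75-base window of KRT18P54 equals one of the KRT18 coding bases. The closest pair, compared without gaps, is KRT18 coding bases 796 to 870 and KRT18P54 bases 249 to 323 on GRCh37. The 4 differing bases are in capitals.
KRT18: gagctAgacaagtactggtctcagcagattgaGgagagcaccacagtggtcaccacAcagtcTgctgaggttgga
KRT18P54: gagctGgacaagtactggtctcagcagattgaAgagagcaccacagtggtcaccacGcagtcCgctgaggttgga
An error-free read of 75 KRT18 coding bases thus differs from this copy at 4 or more positions, compared without gaps. The bases of KRT18 outside its coding sequence were not searched for near matches. Of the exon bases of KRT18P54, 12.3% overlap AC108867.1 on the same strand, which was at 0 in every library. AC108867.1 lies wholly within KRT18P54 (100% of its bases), and the treatment of reads that match both is not given. Its count of 0 therefore does not show whether it is expressed. The 51 pseudogenes of KRT8 had 0.813 to 0.932% of the KRT8 counts in control and 0.841 to 1.37% in siRBM3 libraries. KRT8P12, the most counted of them, had 7.65 ± 0.497 and 7.42 ± 1.39 CPM (SD, n = 3).

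GATA3 is a zinc finger factor of luminal urothelium (ENSG00000107485, chromosome 10, 8087341 to 8117161, plus strand). GATA3 measured 9.30, 10.4 and 12.5 CPM for control replicates 1, 3 and 5, against 13.6, 14.2 and 13.7 CPM for siRBM3 replicates 3, 4 and 5. The lowest siRBM3 library was above the highest control, and the siRBM3 libraries were closer together (13.8 ± 0.354 CPM) than the controls (10.7 ± 1.62 CPM, SD, n = 3). The log2 fold change was 0.37 (SE 0.15, 95% interval 0.02 to 0.71), at an unadjusted p under 0.05 and an FDR of 0.353 (edgeR quasi-likelihood, Benjamini-Hochberg). With scaling by library size only, the groups touched, at 12.6 CPM in control replicate 5 and 12.4 CPM in siRBM3 replicate 3, and the unadjusted p of edgeR was above 0.05. On that scale the groups of PPARG and CD44 came apart, so KRT7 alone of the 7 was apart on both scales.

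PPARG, the nuclear receptor (ENSG00000132170, chromosome 3, 12328867 to 12475855, plus strand), had 136, 145 and 149 CPM in control and 134, 144 and 132 CPM in siRBM3 libraries. The groups overlapped, and the log2 fold change of -0.07 had a 95% interval of -0.27 to 0.13 (FDR 0.798, edgeR quasi-likelihood). This interval lies within a 1.5-fold change in both directions. FOXA1, a forkhead factor that opens chromatin for other factors (ENSG00000129514, chromosome 14, 38058757 to 38065264, minus strand), had 49.6, 41.1 and 39.0 CPM in control and 49.8, 48.9 and 48.7 CPM in siRBM3 libraries. Control replicates 3 and 5 were below the siRBM3 libraries and control replicate 1 was among them, with a log2 fold change of 0.18 (95% interval -0.08 to 0.45, FDR 0.540, edgeR quasi-likelihood). With the replicate number as a block the log2 fold change of FOXA1 was 0.30 (FDR 0.0977, edgeR), and without control replicate 1 it was 0.29 (FDR 0.221, edgeR), both with an unadjusted p under 0.05. Without control replicate 5 it was 0.11.

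UPK2 had 1.86, 1.26 and 1.13 CPM in control and 1.83, 1.70 and 1.85 CPM in siRBM3 libraries, from 30 to 75 counts per library. Control replicate 1 was the highest of all, so the groups overlapped. The log2 fold change was 0.34 (95% interval -0.26 to 0.93, FDR 0.634, edgeR quasi-likelihood), and at this depth an increase above 1.5-fold is within the interval. The value was 0.58 without control replicate 1, 0.20 without control replicate 5 and 0.62 with the replicate number as a block, at an unadjusted p above 0.05 each time.

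CD44, the hyaluronan receptor of basal and many mesenchymal cells (ENSG00000026508, chromosome 11, 35160429 to 35253949, plus strand), had 1070, 1130 and 1110 CPM in control and 1250, 1300 and 1110 CPM in siRBM3 libraries. The overlap came from siRBM3 replicate 5, while siRBM3 replicates 3 and 4 were above all controls. The log2 fold change was 0.15 (95% interval -0.08 to 0.37, FDR 0.574, edgeR quasi-likelihood), which lies within a 1.5-fold change.

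**Figure D4:**
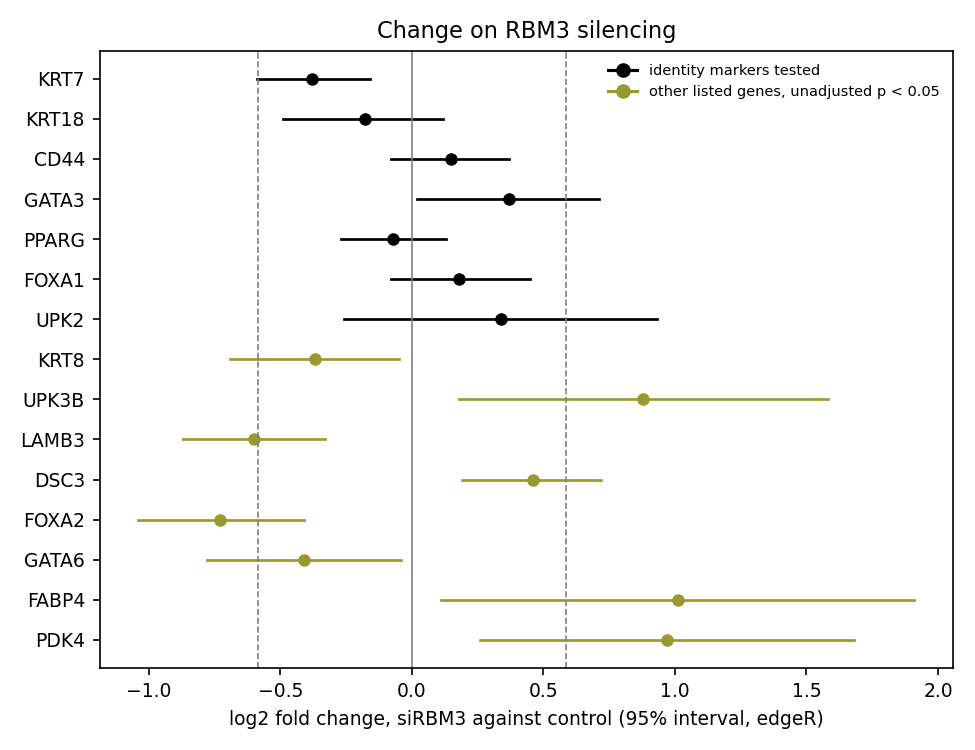
Log2 fold change of siRBM3 against control with its 95% interval from edgeR, for the 7 tested markers (black) and the other listed genes described here that had an unadjusted p under 0.05 (olive). The dashed lines mark a 1.5-fold change in each direction. The intervals of PPARG, FOXA1, CD44 and KRT18 cross 0 and lie within the dashed lines, that of KRT7 (-0.59 to -0.16) lies below 0, and that of UPK2 extends past 1.5-fold upward.

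The genes that work with the markers were read from lists of 107 other genes, of which 106 were in the table and 61 passed the filter. Of these 61, 32 were higher and 29 lower, with a median log2 fold change of 0.01. At an unadjusted p under 0.05 there were 4 higher and 5 lower, or 9 of 61, where 13.1% of all genes passed, so these lists were near the share of all genes. The edgeR quasi-likelihood test called 0 of the 61, and DESeq2, which called 1.22% of all genes, called 2, LAMB3 and FOXA2, both lower.

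For PPARG, 12 of 16 partner and target genes were tested, with 6 higher and 6 lower, and their median log2 fold change was 0.03. The partner receptor RXRA had 154, 132 and 144 CPM in control and 117, 135 and 131 CPM in siRBM3 libraries, with a log2 fold change of -0.16 (95% interval -0.39 to 0.07). FABP4, a fatty acid carrier and PPARG target, had 6.03, 12.4 and 13.0 CPM in control and 31.3, 19.3 and 12.3 CPM in siRBM3 libraries. The spread of FABP4 was wide and the groups overlapped at siRBM3 replicate 5, with a log2 fold change of 1.01 (95% interval 0.11 to 1.91, FDR 0.330, edgeR quasi-likelihood). PDK4, a kinase that restrains pyruvate oxidation, had 0.602 ± 0.195 and 1.18 ± 0.135 CPM (SD, n = 3) without overlap, and a log2 fold change of 0.97 (FDR 0.254, edgeR quasi-likelihood). The more abundant CPT1A, NCOR1 and RXRB, at 65.6, 50.8 and 47.0 TPM, had log2 fold changes of 0.23, 0.12 and -0.08.

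Among 4 tested relatives of GATA3 and FOXA1 the median log2 fold change was -0.23, with 1 higher and 3 lower. FOXA2, a forkhead factor of endoderm, had 21.0, 22.3 and 26.2 CPM in control and 14.7, 14.6 and 12.7 CPM in siRBM3 libraries. The groups of FOXA2 did not overlap, and the log2 fold change was -0.73 (95% interval -1.04 to -0.41, FDR 0.104, edgeR quasi-likelihood), with a DESeq2 adjusted p of 0.000605 (Benjamini-Hochberg). GATA6 had 28.3 ± 3.86 and 21.3 ± 3.57 CPM (SD, n = 3), overlapping, with a log2 fold change of -0.41 (FDR 0.332, edgeR quasi-likelihood). GATA2 had a log2 fold change of -0.04 (95% interval -0.51 to 0.42). In level, FOXA1 at 40.8 TPM was above FOXA2 at 26.9 TPM, and GATA6 at 25.3 TPM was above GATA3 at 14.0 TPM and GATA2 at 8.21 TPM.

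Of the other luminal genes 11 of 20 were tested, with 7 higher and 4 lower, and their median log2 fold change was 0.01. Besides KRT8, UPK3B, a uroplakin-family gene, had an unadjusted p under 0.05 (0.762 ± 0.200 and 1.42 ± 0.289 CPM, SD, n = 3, log2 fold change 0.88, FDR 0.283, edgeR quasi-likelihood). XBP1 had a log2 fold change of -0.30 (95% interval -0.69 to 0.10). Of the 10 tested basal and squamous genes, 4 were higher and 6 lower, with a median of -0.09. LAMB3 encodes a chain of a laminin of the basement membrane, to which basal cells attach. LAMB3 had 235, 285 and 301 CPM in control and 173, 197 and 171 CPM in siRBM3 libraries, a log2 fold change of -0.60 (95% interval -0.87 to -0.33, FDR 0.112, edgeR quasi-likelihood), and DESeq2 called it with an adjusted p of 0.00377. DSC3, a desmosomal cadherin of stratified epithelium, went the other way, with 57.6 ± 7.46 and 78.9 ± 4.65 CPM (SD, n = 3) and a log2 fold change of 0.46 (FDR 0.179, edgeR quasi-likelihood). For LAMB3 and DSC3 the groups did not overlap, whereas S100A2 and ITGA6, with log2 fold changes of -0.04 and 0.06, overlapped or differed by less than the spread.

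Around TP63 and CD44 no gene had an unadjusted p under 0.05. Where TP63 was close to the counting limit, its relative TP73 had 7.85 TPM and a log2 fold change of -0.11, and was highest in control replicate 1 (21.2 CPM). Of 13 genes for the ligand, splicing and anchoring of CD44, 9 were tested, with 4 higher, 5 lower and a median of -0.04. EZR and MSN, which tie CD44 to actin, had 586 and 370 TPM and log2 fold changes of -0.13 and 0.19. The groups did not overlap for EZR, lower, and MSN, higher, as for 19.9% of all genes tested. MMP14, a protease that sheds CD44, had 235 TPM and a log2 fold change of -0.07. ESRP1, a splicing factor that favours the epithelial variant forms of CD44, had 41 counts in all and was not tested. Gene counts do not separate the forms of CD44.

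Mesenchymal markers and markers of other cell types were read beside these values. All libraries came from the single line T24, so the levels given are those of that line. The 7 tested of 9 mesenchymal markers had a median log2 fold change of 0.12 and a summed level of 21500 to 25100 CPM in control and 24800 to 30700 CPM in siRBM3 libraries. FN1, VIM and CDH2 had 5150, 1950 and 76.6 TPM and log2 fold changes of 0.24, 0.16 and 0.08. Of 6 leukocyte markers 1 was tested, CD14 with a log2 fold change of -0.07, their sum was 2.56 to 3.44 CPM in control and 2.33 to 2.98 CPM in siRBM3 libraries. Of 5 endothelial markers 4 were matched and 2 tested, with a summed level of 27.9 to 33.9 CPM in control and 33.8 to 40.8 CPM in siRBM3 libraries, most of it CDH5 (log2 fold change 0.28, 95% interval -0.01 to 0.56). Of 9 fibroblast and smooth muscle markers 4 were tested, with sums of 11.8 to 12.6 and 12.5 to 15.1 CPM. The part of such differences in the values of the identity markers was not tested, and in bulk RNA fewer cells with a marker and less of its RNA per cell cannot be told apart.

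Across the 6 libraries, the genes whose log2 CPM followed each marker most closely were sought among all genes tested. The Pearson r was 0.997 between GATA3 and both CDH8-AS1 and MGP, 0.995 between KRT7 and SRM, 0.993 between KRT7 and NUDT17, and 0.996 between KRT18 and SLC2A13 (0.989 for OLFML2B). FOXA1 was nearest to ARNT2 (0.994) and TMEM72-AS1 (0.992), and UPK2 to TMEM72-AS1 (0.996) and NIN (0.994). PPARG was nearest to ZCCHC17 (0.982) and SCOC-AS1 (0.981), and CD44 to LINC02870 (0.990) and GUCY1B2 (0.987). Between 19 and 71 genes had an r above 0.95 with each marker, the points share their library, depth and group, and with 6 points such values describe these libraries only. No other of the 10 markers was among these nearest genes.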

How the data were processed

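RNA from T24 cells, 3 control and 3 siRBM3 samples, was sequenced by the authors as single-end reads of 75 bases. Per the labels and the methods of the study, reads were aligned to GRCh37 with STAR, duplicates were marked with Picard and reads were counted per gene with featureCounts. Annotation release, strand setting and counting of marked duplicates were not given in the sources used here. Deposited values are raw counts per Ensembl identifier, not normalized by the authors. Symbols, positions and lengths came from GENCODE release 44 on GRCh37, and 55665 of 63677 identifiers were matched.

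Genes were kept by filterByExpr of edgeR 4.0.16 (minimum count 10, minimum total 15), scaled by TMM and tested with its robust quasi-likelihood method on R 4.3.3, with Benjamini-Hochberg adjustment over 15099 genes. A call needed a 1.5-fold difference at an FDR of 0.01, as in the study, which used DESeq2. DESeq2 1.42.0, limma-voom (limma 3.58.1), other scalings and filters, each library left out and a replicate block were the alternatives. The steps were tested on simulated data. TPM used the union of exons and carry no TMM scaling, so groups were compared on CPM. Libraries of the same group all differed by more than sampling noise (chi-square per degree of freedom 27.7 to 141). Permutation tests used scipy 1.17.1 on Python 3.11.15.

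The named genes are the 10 markers, RBM3, the 3 most abundant genes of each other list with every gene at an unadjusted p under 0.05 or called by DESeq2, the most counted pseudogenes of KRT18 and KRT8, and the 2 genes most like each tested marker. Some listed genes are not reported here by name. Other genes were named for their role, after their values were seen. The markers and lists were chosen with earlier results of these data known.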

Additional observations from a re-analysis of the deposited data

How the results depend on the processing

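With 3 libraries per group, RBM3 itself did not pass the FDR of 0.01 in edgeR, so the absence of calls among the markers does not show that they were unaffected. RBM3 did pass with DESeq2 (-2.14), with no filter on low counts (-2.13) and with the replicate block (-2.57). In every alternative run, 0 of the markers were called and no tested marker changed sign. The number of markers at an unadjusted p under 0.05 was 2, and 1 with library size only (KRT7) and 1 with the replicate block, where it was FOXA1 (log2 fold change 0.30, against 0.26 for GATA3 and -0.36 for KRT7). With each library left out it was 1 to 2. KRT7 then ranged from -0.41 to -0.35 and stayed under 0.05, while GATA3 ranged from 0.27 to 0.49 and stayed under 0.05 only without control replicate 5. With each library left out KRT18 ranged from -0.27 to -0.03, FOXA1 from 0.11 to 0.29, UPK2 from 0.20 to 0.58, CD44 from 0.10 to 0.21 and PPARG from -0.11 to -0.04, and with the replicate block these were -0.01, 0.30, 0.62, 0.07 and -0.14. Of the other listed genes, 0 were called, 0 with each library left out, and 2 with DESeq2 or with no filter (FOXA2 and LAMB3) and 3 with the replicate block, where ANGPTL4, named after its values were seen, joined them. At an unadjusted p under 0.05 they numbered 9, and 16 with no filter, 17 with the replicate block and 7 to 13 with each library left out. The groups share only the numbers 3 and 5, whose deviations correlated at 0.528 and 0.0884, so the numbers were not shown to pair the samples. With the longest transcript as length the mean TPM was 11.1 for GATA3, 86.8 for PPARG, 597 for CD44 and 4850 for KRT7. Library size only moved the median of all genes by -0.05. Depth limits KRT20, KRT5 and TP63, which have too few counts for a test.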
